A study of Canis lupus familiaris with 8 samples.

Results

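Catalase (CAT), selenium binding protein 1 (SELENBP1) and peroxiredoxin like 2A (PRXL2A) are redox genes, followed here in arrays of the anterior mitral valve leaflet from 8 dogs. They were taken by symbol from the platform annotation, which gives them 8 probe sets: 5 for CAT, 2 for SELENBP1 and 1 for PRXL2A (NCBI gene identifiers 403474, 475847 and 479261). They are 3 of the 6540 genes that the annotation names by a single symbol, and 8 of 23913 rows of the array. The genes had been chosen from these same arrays for their lower signal in diseased leaflets, so the difference between the groups is given here as a description, with no test of it.

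The 4 control dogs were beagle crosses, and the 4 affected dogs had degenerative mitral valve disease (DMVD), in which the leaflets thicken and distort. Affected 1 was a Lhasa apso, affected 2 and affected 4 were Miniature poodles, and affected 3 was a Dachshund. Breed and disease changed together and cannot be told apart, and the labels give neither age nor sex. All leaflets had been frozen in liquid nitrogen, and total RNA from each dog went on 1 Affymetrix array, so no dog has a technical repeat. The labels call the dogs biological replicates and name no batch.

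Cells remove hydrogen peroxide by several routes. Catalase, a heme enzyme held mostly in peroxisomes, splits peroxide into water and oxygen, while glutathione peroxidases and peroxiredoxins reduce it with electrons drawn from glutathione and thioredoxin. SELENBP1 binds selenium without being a selenoprotein, and oxidises methanethiol in a reaction that itself gives off hydrogen peroxide and hydrogen sulfide. PRXL2A has a thioredoxin-like fold related to that of the peroxiredoxins and is described as a regulator of cell redox state. Peroxide in a valve can come from the phagocyte oxidase, from xanthine oxidase and from amine oxidases.

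The deposited values are MAS5 signals, which combine the probes of a probe set into 1 brightness on a linear scale. The trimmed mean was 500.1 on all 8 arrays, with median signals of 123.8 to 191.5. Control 2 stood apart from the other controls in its tissue markers, with the highest cardiac muscle and the lowest fibroblast and macrophage sums, so the values of the 3 genes, and of listed genes that it moved most, are also given without it. Differences are in log2 signal, affected minus control, and the error after a difference is the standard error (SE) from limma with 4 dogs per group. Before taking log2, signals below 34.2 (the 20th percentile over the arrays) were raised to that floor. The test took the 14705 probe sets that lay above the 40th percentile of the array on 4 or more of the 8 arrays. Of the 8 probe sets of the 3 genes, 5 passed: 2 of CAT, both of SELENBP1 and that of PRXL2A.

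In each of the 5 bright probe sets of the 3 genes, the brightest affected dog lay below the dimmest control. Mean signals in controls were 1.70 and 2.58 times those in affected dogs for CAT, 3.46 and 2.70 times for SELENBP1 and 2.48 times for PRXL2A. Over the whole array the groups were apart in this direction for 2.31% of the tested probe sets, but the genes were picked for this contrast, so nothing is read from that comparison. With Benjamini-Hochberg adjustment, limma called 0 of 14705 probe sets in either direction (0% higher and 0% lower, smallest adjusted p = 0.2377), and 1151 had an unadjusted p under 0.05.

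SELENBP1, the methanethiol oxidase, was measured by a pair of bright probe sets. The signal of 1593721_s_at was 977.7, 1006.4, 921.6 and 1204.7 in controls 1 to 4, and 217.5, 249.7, 397.4 and 351.2 in affected dogs 1 to 4. The highest affected dog, the Dachshund, lay below the lowest control by a factor of 2.32. The log2 difference was -1.79 ± 0.26 (SE), which makes the mean control signal 3.46 times the affected one. The signal of 1592149_at was 586.4, 934, 683.6 and 924 in controls 1 to 4, and 209.3, 280.6, 336.2 and 331.1 in affected dogs 1 to 4. Here too the groups were apart, with a factor of 1.74 between the lowest control and the highest affected dog. This probe set differed by -1.43 ± 0.27, a factor of 2.70. In 1593721_s_at the controls were close together, with an SD of 0.17 in log2 signal (n = 4) against 0.41 (n = 4) in affected dogs. In 1592149_at the spread was alike, at 0.33 and 0.32. Both probe sets put the affected dogs in the same order, with the Dachshund highest and the Lhasa apso lowest.

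PRXL2A, the peroxiredoxin-like protein, had a single probe set, 1583306_at. Its signal was 1672.8, 2748.3, 3273.5 and 1609.9 in controls 1 to 4, and 688.1, 910.9, 1217.2 and 836.3 in affected dogs 1 to 4. The controls fell into 2 brighter dogs (2 and 3) and 2 dimmer ones (1 and 4), and the dimmest control was 1.32 times as bright as the brightest affected dog, again the Dachshund. The log2 difference was -1.31 ± 0.30, or 2.48 times in the mean. The SD in log2 signal was 0.51 (n = 4) in controls and 0.34 (n = 4) in affected dogs. Without control 3, the brightest dog, the difference was -1.12, and without control 4, the dimmest control, -1.47.

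CAT was represented by 2 bright and 3 dim probe sets. The signal of 1582412_s_at was 3911.9, 5785.5, 4740.0 and 5001.8 in controls 1 to 4, and 3178.1, 2869.3, 3441.8 and 2058.0 in affected dogs 1 to 4. The groups were apart but close, with a factor of 1.14 between control 1 and affected 3. The difference was -0.76 ± 0.24, or 1.70 times in the mean, and a Miniature poodle (affected 4) was the lowest dog. The signal of 1595237_s_at was 3750.6, 3556.3, 2689.9 and 3883.3 in controls 1 to 4, and 1178.5, 951.1, 2358.7 and 1186.7 in affected dogs 1 to 4. Affected 1, 2 and 4 lay together, well under every control, while the Dachshund lay near control 3, again with a factor of 1.14 between them. This second probe set differed by -1.37 ± 0.30, or 2.58 times in the mean. Its SD in log2 signal was 0.57 (n = 4) in affected dogs, the widest of the 5 bright probe sets in that group, against 0.24 (n = 4) in controls. Leaving out the Dachshund moved its difference to -1.64, and leaving out affected 2 moved it to -1.21.

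The 3 dim CAT probe sets did not pass the brightness rule and showed no separation of the groups. The signal of 1587849_at ran from 72.7 to 120.2 in controls and from 46.4 to 120.8 in affected dogs, and lay above the 40th percentile on 3 arrays. That of 1595236_at ran from 31.9 to 76.1 in controls and from 19.2 to 95.3 in affected dogs, with 3 arrays under the floor. That of 1592623_at ran from 9.99 to 65.7 in controls and from 4.62 to 52.5 in affected dogs, with 6 arrays under the floor. These last 2 probe sets were above the 40th percentile on 0 of 8 arrays. The log2 differences of the 3 were -0.11, -0.043 and -0.081, in the same order, and the groups overlapped in each. The annotation lists the dim 1595236_at and the bright 1595237_s_at under the same sequence record. With 3 probe sets too dim, the CAT measurement rests on 2 of its 5 probe sets.

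**Figure D1:**
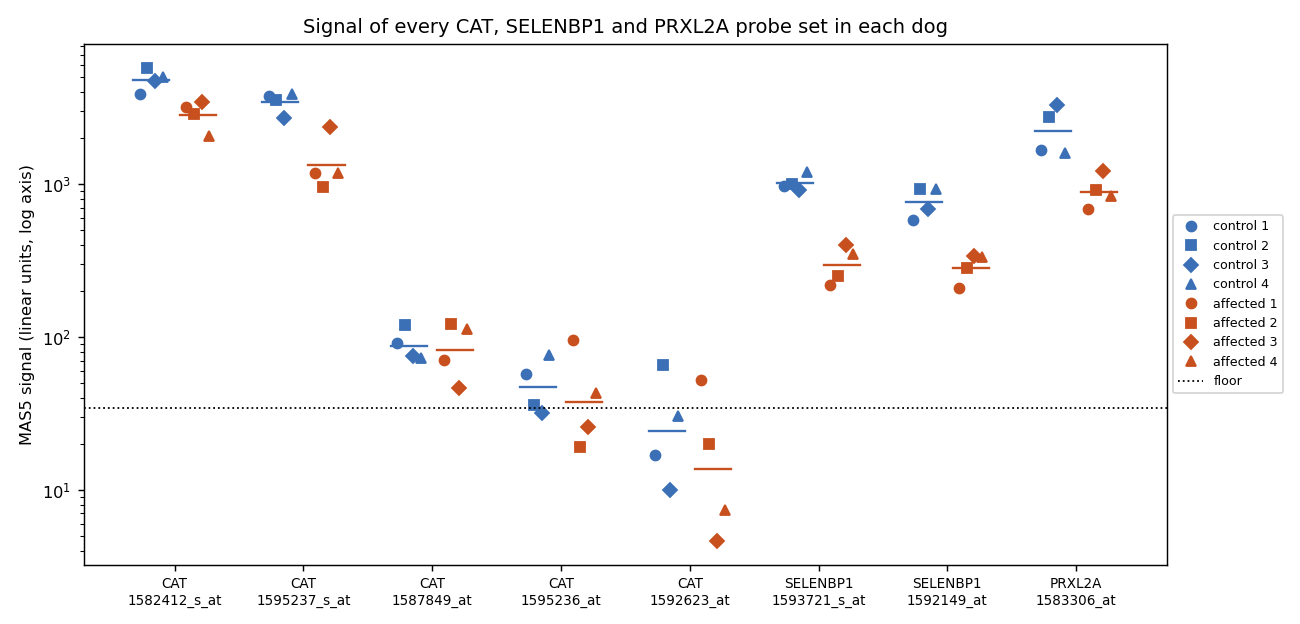
MAS5 signal (log axis, linear units) of each of the 8 probe sets in the 4 control (blue) and 4 affected (orange) dogs, with a marker shape per replicate number, a bar at the geometric mean of the deposited signals and a dotted line at the floor of 34.2. In the 5 bright probe sets every affected dog lies below every control, and in the 3 dim CAT probe sets the groups overlap.

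The differences were recomputed under other choices of processing. Values as deposited, no floor, a higher floor and the replicate block leave the bright probe sets as they are by construction. Quantile normalization, median centring, a pseudocount, array weights and a cardiac muscle covariate gave -0.84 to -0.73 and -1.47 to -1.36 for CAT, -1.87 to -1.74 and -1.51 to -1.38 for SELENBP1 and -1.39 to -1.11 for PRXL2A. For SELENBP1 the range over dogs left out was -1.94 to -1.65 for 1593721_s_at and -1.56 to -1.28 for 1592149_at. For CAT it was -0.86 to -0.61 for 1582412_s_at and -1.64 to -1.21 for 1595237_s_at. With 4 dogs a group and no overlap, leaving out a dog can neither turn the direction nor move a difference by 1 within-group SD, so these ranges show only how far 1 dog carries a value.

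**Figure D2:**
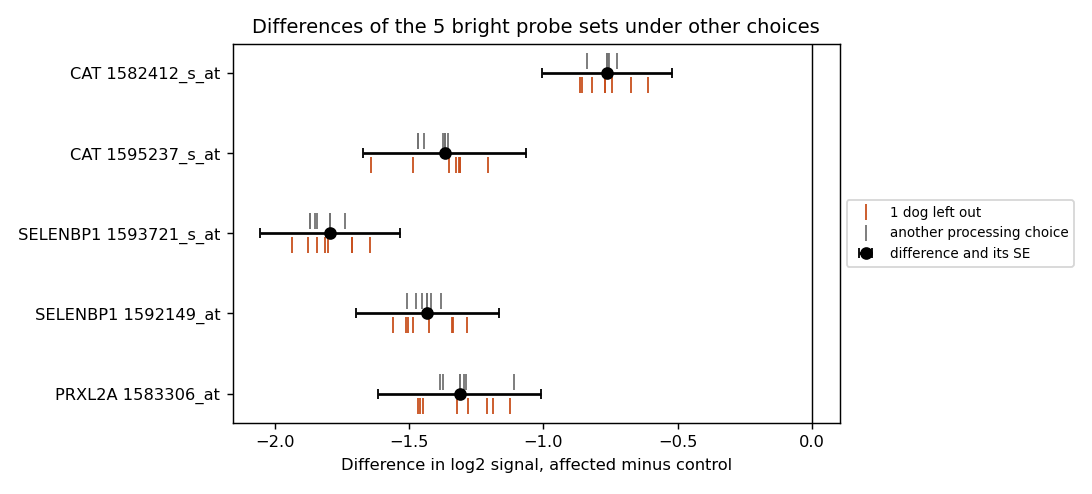
Difference in log2 signal, affected minus control, for the 5 bright probe sets, with the SE from limma as a bar, the value without each dog as orange ticks and the value under other processing choices as grey ticks. The ticks stay between -1.94 and -0.61, and the vertical line marks a difference of 0.

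Within a group, the dogs did not keep 1 common order over the 3 genes. Each dog's deviation from the mean of its own group, in log2 signal, does not depend on the difference between the groups. The Dachshund (affected 3) was above the mean of the affected dogs in all 5 bright probe sets, by 0.24 to 0.83. The Lhasa apso (affected 1) was 0.44 below that mean in each SELENBP1 probe set and 0.38 below it for PRXL2A, but 0.16 above it in CAT 1582412_s_at. Control 3 was 0.56 above the control mean for PRXL2A, yet 0.35 below it in CAT 1595237_s_at and 0.15 to 0.17 below it in SELENBP1. Control 4 was 0.46 below the mean for PRXL2A while it was 0.24 to 0.27 above it in SELENBP1.

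Over the 8 dogs the deviations of the SELENBP1 pair of probe sets correlated at r = 0.77, with 7 of 8 dogs on the same side of their group mean. The CAT pair correlated at 0.35, with 5 of 8 dogs on the same side. Between genes, r was 0.72 for CAT 1595237_s_at with SELENBP1 1593721_s_at, -0.081 for CAT 1582412_s_at with that SELENBP1 probe set, and 0.11 to 0.37 for PRXL2A with each of the other 4. These are descriptions over 8 arrays that share their scaling and 2 removed group means, with no p-value.

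**Figure D3:**
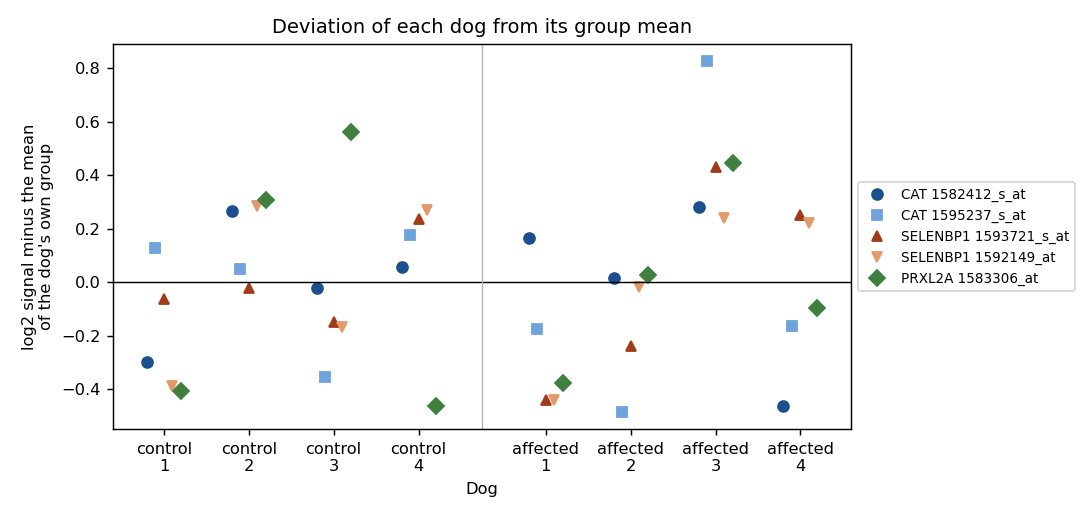
Log2 signal of each dog minus the mean of its own group, for the 5 bright probe sets of CAT, SELENBP1 and PRXL2A. The points of affected 3 all lie above 0, between 0.24 and 0.83, and control 3 and control 4 have PRXL2A (green) on the opposite side from SELENBP1 (brown and tan).

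To set the 3 genes among their neighbours in metabolism, 7 lists of redox, peroxisome and sulfur genes were followed, each gene at its brightest tested probe set and with the 3 genes themselves left out. They held 106 measured genes, of which 7 stand in several lists. None of the 106 passed limma after adjustment over all probe sets (smallest adjusted p = 0.3297), and 12 had an unadjusted p under 0.05. Over the 5438 genes tested, 4.8% were higher and 3.92% lower in affected dogs at that unadjusted p. The groups did not overlap for 2.7% of genes in the higher and 2.37% in the lower direction. The median difference of the 5435 genes other than the 3 was -0.0053, with 50.5% below 0.

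Genes of the peroxide removal list lay on both sides of 0. The list also holds SOD1, SOD2, CCS and TXNIP, which are not enzymes of peroxide removal. Of 23 measured, 14 had a positive and 9 a negative difference, with a median of 0.056, which was -0.018 with median centring, -0.074 without affected 1 and 0.19 without control 2. The members differed among themselves, and 3 of them had an unadjusted p under 0.05, with 2 higher and 1 lower in affected dogs. PRDX2, a cytosolic peroxiredoxin abundant in red blood cells, differed by -0.62 ± 0.26 and went from 3976 to 5976 in controls and from 2393 to 4715 in affected dogs. TXN, the thioredoxin that supplies electrons to peroxiredoxins, differed by 0.55 ± 0.22, with signals of 5576 to 6383 in controls and 6804 to 11326 in affected dogs and no overlap. SOD2, the mitochondrial enzyme that turns superoxide into peroxide, differed by 1.46 ± 0.63, and the value was 0.88 without affected 4, the brightest dog, and 1.89 without control 2. The other SOD2 probe set tested, 1588654_at, differed by 0.84 ± 0.47 (limma unadjusted p = 0.1039). The limma adjusted p was 0.6174 for PRDX2, 0.614 for TXN and 0.6268 for SOD2.

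For the other enzymes named from this list, most differences were within about 1 SE of 0. The glutathione peroxidase GPX1 differed by 0.35 ± 0.33 and the secreted form GPX3 by -0.30 ± 0.92, which was 0.48 without control 2 and 0.36 with the cardiac muscle covariate. The other GPX3 probe sets tested differed by -0.86 ± 0.84, -1.37 ± 0.97 and 0.20 ± 0.29. Among the peroxiredoxins, PRDX1 differed by -0.40 ± 0.29, the mitochondrial PRDX3 by -0.37 ± 0.38, PRDX4 of the endoplasmic reticulum by 0.056 ± 0.36, PRDX5 by 0.28 ± 0.34 and PRDX6 by 0.22 ± 0.22. Without control 2 PRDX3 was at 0.016, without control 1 PRDX4 was at -0.15, and without affected 1 PRDX5 was at 0.030. The other PRDX6 probe sets tested differed by -0.26 ± 0.30 and 0.26 ± 0.62, and that of PRDX5 by 0.54 ± 0.34. Those of GPX1 differed by 0.0037 ± 0.25 and -0.023 ± 0.29. GPX8, a membrane-bound glutathione peroxidase family member of the endoplasmic reticulum, differed by -0.35 ± 0.21. The cytosolic superoxide dismutase SOD1 differed by -0.35 ± 0.22, and its affected dogs (5393 to 6132) all lay below its controls (6196 to 9156). TXNRD1, which recharges thioredoxin, differed by 0.088 ± 0.33, and by -0.14 without control 3. GPX4, SOD3, HMOX1, NFE2L2 and PEX5 were to be named whatever their values, but no probe set carried any of these symbols alone.

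Peroxisome genes, the neighbours of catalase in its organelle, had mostly negative differences, though limma called none of them (0 of 20). Of 20 measured, 16 had a negative difference, with a median of -0.35 against -0.0053 over all genes. Without affected 1 the median was -0.24 and without affected 3 it was -0.40. At an unadjusted p under 0.05, 2 were lower and 0 higher. EPHX2, a soluble epoxide hydrolase found partly in peroxisomes, differed by -1.05 ± 0.36 (limma adjusted p = 0.5452), with signals of 549.3, 788.7, 1437.4 and 883.9 in controls 1 to 4 and 670.9, 382.6, 281.1 and 413.4 in affected dogs 1 to 4. Affected 1 was brighter than control 1, and the other affected dogs lay under every control. The other EPHX2 probe sets tested differed by -0.99 ± 0.31, -0.76 ± 0.29 and, for a dim one, 0.053 ± 0.29. HSD17B4, an enzyme of peroxisomal fatty acid oxidation, differed by -0.68 ± 0.27 (adjusted p = 0.6045), with 1275 to 1673 in controls and 619.7 to 1277 in affected dogs, and a second probe set gave -0.69 ± 0.29.

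Some of the other enzymes of peroxisomal lipid handling had negative differences of similar size. The lipid carrier and thiolase SCP2 differed by -0.49 ± 0.24, PECR, a reductase of unsaturated acyl chains, by -0.71 ± 0.34 and the thiolase ACAA1 by -0.57 ± 0.35. Of the factors that import proteins into the organelle, PEX7 differed by -0.40 ± 0.24 and PEX13 by -0.46 ± 0.30. The groups overlapped in each of these 5 genes. Another assembly factor, PEX19, differed by -0.21 ± 0.23, while PEX26, the membrane anchor of the import machinery, and PEX5L differed by 0.21 ± 0.30 and 0.17 ± 0.41. Of the remaining genes of the list, DDO, IDH1, ABCD3 and LONP2 differed by -0.87, -0.77, -0.49 and -0.30. FAR1, AMACR, MLYCD and SLC25A17 lay near 0, at -0.011, -0.020, -0.0096 and -0.0030, and so count among the 16 negative. ACOT8 and ABCD4 were positive, at 0.14 and 0.34.

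Genes of the list of peroxide and superoxide sources, regulators such as RAC2 among them, had mostly positive differences. Of 13 measured, 11 had a positive difference, with a median of 0.33, and 3 had an unadjusted p under 0.05 in limma, all of them higher in affected dogs with no overlap. Over all genes tested, 4.8% were higher at that p and 2.7% were higher with no overlap. CYBB, the catalytic subunit of the phagocyte oxidase, had a signal of 1057.7, 175, 499.4 and 602.7 in controls 1 to 4 and 1896.2, 1563.1, 2587.7 and 2241.6 in affected dogs 1 to 4. Every affected dog exceeded every control, and the difference was 2.07 ± 0.47 (limma adjusted p = 0.3297). CYBB is also 1 of the 16 measured macrophage and monocyte markers. All 16 had a positive difference, with a median of 1.97, but MARCO passed the brightness rule only through the affected dogs. The part of these markers in the values of CYBB and RAC2 was not tested. XDH, which makes peroxide while breaking down purines, differed by 1.15 ± 0.33 (adjusted p = 0.4524), and the GTPase RAC2, which switches on the phagocyte oxidase, by 1.77 ± 0.54 (adjusted p = 0.4966). The median of the list was 0.0996 without control 2, the dog with the lowest CYBB, RAC2 and XDH, and 0.13 with array weights. MAOA and MAOB, amine oxidases of the mitochondrial surface, differed by 0.35 ± 0.25 and 0.61 ± 0.70, and the lysyl oxidase LOXL3, which acts on collagen, by 0.91 ± 0.56. Without control 2 MAOB was at -0.23 and LOXL3 at 0.29, and with array weights at -0.044 and 0.40.

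Selenoproteins and the genes that handle selenium had small differences. Of 20 measured, 12 had a positive and 8 a negative difference, the median was 0.036, and the whole range ran from -0.44 to 0.36. No member had an unadjusted p under 0.05 (0 of 20 in limma). SELENOP, which carries selenium in plasma, differed by -0.025 ± 0.29 and SELENOW by 0.055 ± 0.26. PSTK, a kinase needed to make selenocysteine, differed by 0.33 ± 0.23, the smallest p of the list (limma adjusted p = 0.7245). LRP2, a receptor that takes up SELENOP, differed by -0.44 ± 0.39 and the mitochondrial thioredoxin reductase TXNRD2 by 0.36 ± 0.35. The median was 0.19 without affected 3, -0.0050 without affected 1 and -0.0400 with median centring.

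Sulfide and methanethiol genes, which act near SELENBP1, also lay on both sides of 0. Of 10 measured, 6 had a negative difference, with a median of -0.11 that ran from -0.17 without affected 1 to -0.021 without control 1. The sulfur transferase TST differed by -1.31 ± 0.51 and the methyltransferase BHMT by -1.05 ± 0.42 (limma adjusted p = 0.6045 and 0.6066). Both are dim: with a floor at the 40th percentile they differed by -0.88 and -0.37. SQOR, which oxidises hydrogen sulfide in mitochondria, differed by 0.54 ± 0.30, CDO1, which breaks down cysteine, by 1.01 ± 0.72, and the aminotransferase GOT1 by -0.83 ± 0.49. Without control 2 CDO1 was at 0.15 and GOT1 at -0.40.

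Targets and regulators of NRF2, the transcription factor of the oxidative stress response, were mixed as well. Of 17 measured, 11 had a positive difference, with a median of 0.088. AKR7A2, an aldehyde reductase, differed by -1.59 ± 0.37 (limma adjusted p = 0.3373), with 417.5, 469, 268.7 and 441.5 in controls 1 to 4 and 79.2, 248.3, 133.1 and 107.8 in affected dogs 1 to 4. The groups did not overlap, though affected 2 came near control 3. BLVRB, a reductase of biliverdin and flavins, differed by 0.93 ± 0.41 (adjusted p = 0.6327), NQO1, a quinone reductase, by -0.13 ± 0.26, and KEAP1, the inhibitor of NRF2, by 0.15 ± 0.24. The iron-binding PIR differed by 0.80 ± 0.39 and TKT, an enzyme of the pentose phosphate pathway, by 0.76 ± 0.41. Without control 2 the median of this list was 0.25.

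Among 12 regulators of redox and lipid metabolism, 6 differences were positive and 6 negative, with a median of 0.029. FOXO3, a transcription factor known to act on antioxidant genes, differed by 0.39 ± 0.21 with no overlap between the groups (limma adjusted p = 0.6799). PPARA, which controls fatty acid oxidation, differed by -0.51 ± 0.33 at its brightest probe set and PPARGC1A by -0.48 ± 0.41. NR1H3, a receptor for oxysterols, differed by 0.69 ± 0.40 and the deacetylase SIRT1 by -0.44 ± 0.28. Without control 2 PPARA was at -0.24, PPARGC1A at -0.083 and NR1H3 at 0.40. None of the 12 had an unadjusted p under 0.05 (0 of 12 in limma). The median was -0.040 with median centring, -0.27 without affected 3, -0.15 without control 3 and -0.13 without affected 2.

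**Figure D4:**
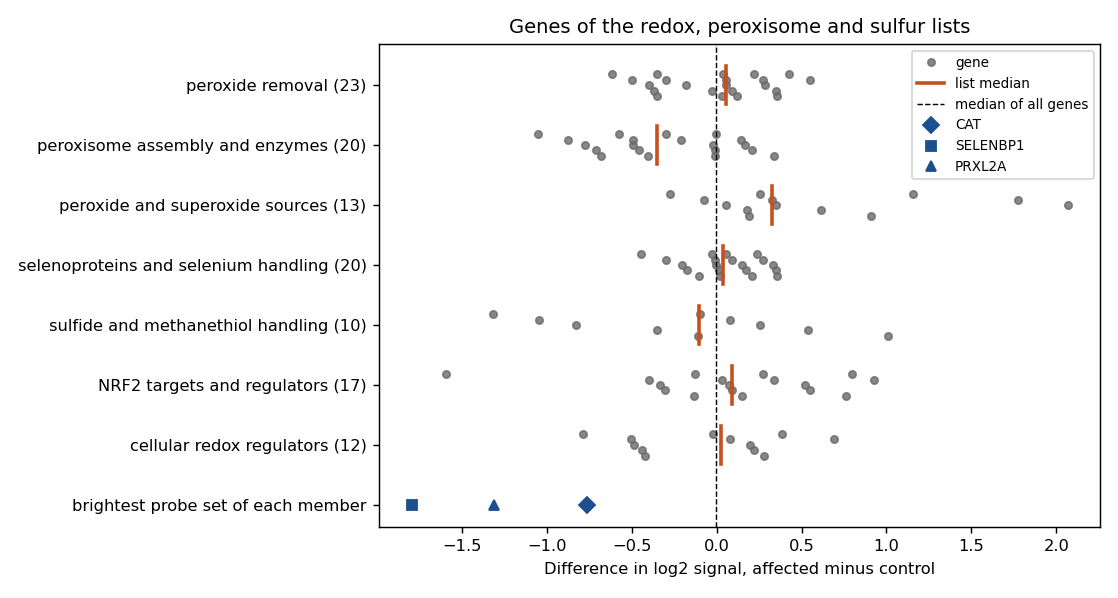
Difference in log2 signal, affected minus control, of each measured gene (grey) in the 7 lists, with the number of genes in brackets, the list median in orange and the median of all genes as a dashed line. Blue symbols give the brightest probe set of CAT (-0.76), PRXL2A (-1.31) and SELENBP1 (-1.79), and the peroxisome list has its median at -0.35.

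The genes whose pattern was most like that of each member were ranked by Pearson r of log2 signal over the 8 dogs, against the other tested probe sets with 1 symbol (7853 for CAT and SELENBP1, 7854 for PRXL2A). For CAT 1582412_s_at they were MOCS2, which acts in making the molybdenum cofactor (r = 0.96), CMBL, a hydrolase (0.95), SDHAF2, an assembly factor of succinate dehydrogenase (0.95), the growth hormone receptor GHR (0.94) and GCDH, a mitochondrial enzyme of lysine breakdown (0.93). With the group means removed these correlations were 0.81 to 0.89. For SELENBP1 1593721_s_at they were the cold-inducible CIRBP (0.96), EXOSC1 (0.96), INTS12 (0.95), ENPP2, which makes lysophosphatidic acid (0.95), and ARL6IP5 (0.95). Here the correlations with group means removed were lower, at 0.64 to 0.79, except for ARL6IP5 at 0.94. For PRXL2A they were MCFD2 (0.97), the fatty acid desaturase SCD (0.96), TOP2B (0.96), NR2F6 (0.93) and ZCRB1 (0.93), at 0.71 to 0.97 with group means removed. The lists of 5 shared no gene. An r of 0.9 or more was reached by 21 probe sets for CAT, 28 for SELENBP1 and 11 for PRXL2A, and with so many compared over 8 arrays these values are a description only. The values with group means removed come from the same dogs by which the genes were picked, so they are no separate check.

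The leaflets also differed in markers of the cells they held. In such whole tissue, fewer cells of a type and less RNA per cell cannot be told apart. The 7 measured fibroblast and valve interstitial markers, COL1A2, DCN and VIM among them, summed to 43821.2 (control 2) to 125894.5 in controls and 96781.9 to 127119.3 in affected dogs. All 16 measured macrophage and monocyte markers had a positive difference, with a summed signal of 2184.7 (control 2) to 23118 in controls and 25234.9 to 52077.7 in affected dogs. The same held for all 6 endothelial markers, with sums of 8236.3 to 11938.8 and 15904.2 to 28270.5. Neither of these summed signals overlapped between the groups. Among the macrophage markers, MARCO lay under the floor in 4 of 4 controls. It passed the brightness rule only through the affected dogs, so its positive sign was fixed by that rule. FCER1G lay under the floor in 3 of 4 controls. All 5 fat cell markers had negative differences, from -2.82 for ADIPOQ to -0.015 for PNPLA2, and in each the groups overlapped. Their sum, to which PNPLA2 gave the largest part in 7 of 8 dogs, was 5163.3 to 21076.6 in controls, highest in control 3, and 3665.2 to 5046.9 in affected dogs. Their mean log2 signal overlapped, at 7.451 (control 2) to 11.3 in controls and 7.924 to 8.503 in affected dogs. The part of the macrophage, endothelial and fat cell markers in the lower CAT, SELENBP1 and PRXL2A signals was not tested.

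The other marker sums overlapped between the groups. Of 15 cardiac muscle markers 14 had a negative difference, with a median of -0.49, and they summed to 66548.7 to 313646.3 in controls and 33603.2 to 257527.7 in affected dogs, and were highest in control 2 and lowest in affected 3. With the mean log2 signal of these markers as a covariate, an alternative added after seeing the data, the differences were -0.76 and -1.47 for CAT, -1.85 and -1.42 for SELENBP1 and -1.37 for PRXL2A. Without control 2 they were -0.68 and -1.35, -1.80 and -1.34, and -1.21. Red blood cells are rich in catalase and peroxiredoxin 2. Of the 6 measured red blood cell markers 4 had a negative difference, with a median of -0.17. The 2 positive ones were the brightest, LOC609402 at 0.46 ± 0.59 and LOC100855558 at 0.46 ± 0.34. Of the negative ones LOC480784 was at -0.0061, GYPC at -0.32, FECH at -0.48 and ANK1 at -1.497. The ANK1 signal was 2400.2 in control 2 and 173.6 to 240.8 in the other controls. All 6 red blood cell markers summed to 16375.4 to 57826.9 in controls and 25540.4 to 59215.7 in affected dogs, so the groups overlapped. Among the listed genes of that cell, CA1, CA2 and SPTB did not pass the brightness rule.

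With group means removed, the deviations of SELENBP1 ran against those of the mean endothelial marker signal, at r = -0.85 for 1592149_at and -0.66 for 1593721_s_at over the 8 dogs. For PRXL2A the same r was -0.53 and for CAT it was -0.34 and -0.31. With smooth muscle markers r was -0.69 for SELENBP1 1593721_s_at and -0.19 for 1592149_at. With T and B cell markers it was -0.51 and -0.39, and with macrophage markers -0.028 and -0.60, in the same order. Values of like size stood in the other genes. CAT 1595237_s_at was at -0.63 with T and B cell and -0.55 with cardiac muscle markers. PRXL2A was at -0.56 with macrophage and 0.53 with T and B cell markers. The highest positive value of the 40 was 0.72, between PRXL2A and the red blood cell markers. These values share the arrays and their scaling, and are given as a description over 8 dogs.

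**Figure D5:**
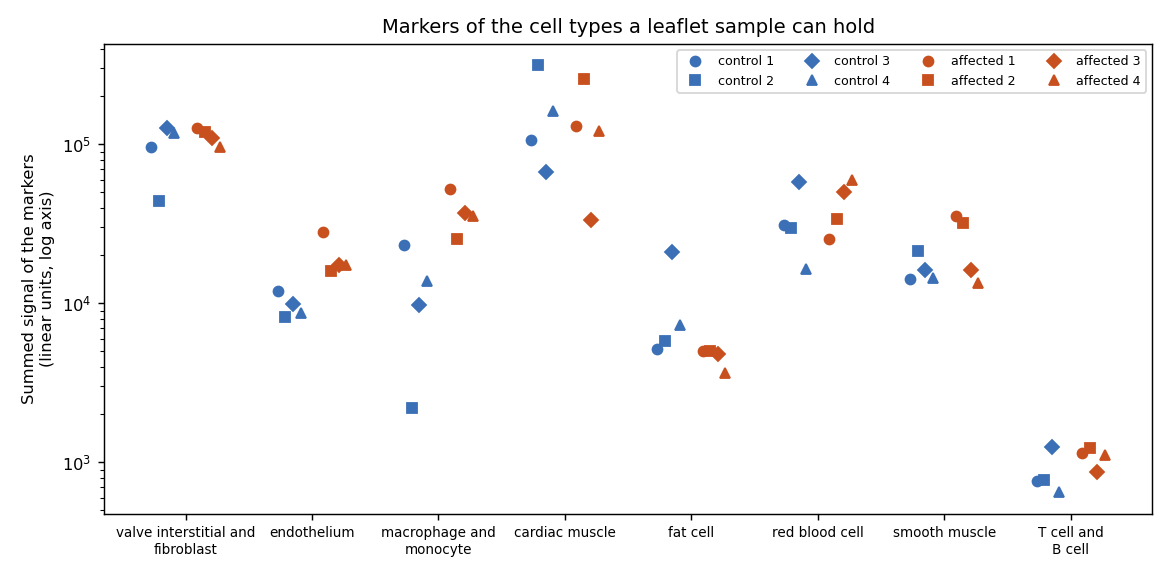
Summed MAS5 signal (log axis, linear units) of the measured markers of each cell type, in control (blue) and affected (orange) dogs, with a marker shape per replicate number. Macrophage and endothelial sums are higher in every affected dog than in every control, and cardiac muscle and red blood cell sums overlap. Fat cell sums are lower in every affected dog, though the mean log2 signal of these markers overlaps.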

How the data were processed

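Each of 8 dogs gave total RNA for 1 Affymetrix array, per the labels' protocols. The authors deposited probe set intensity signals on a linear scale computed by MAS5 according to the submitters' processing notes; no source used here gives its version, or says whether detection calls or filters were applied. MAS5 values near background are imprecise, and the number of arrays limits precision. The table held 23913 rows, 77 of them array controls. In the platform annotation 10549 rows had a single symbol, 138 had several and 13226 had none, and 10046 of the named rows had their gene identifier in a RefSeq table of the dog assembly UU_Cfam_GSD_1.0, with 0 symbols updated. The annotation does not state a genome build, so coordinates are left out.

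The signals were brought to the same 2% trimmed mean (factors 0.999986 to 1.00001), floored and put on the log2 scale. The groups were compared with limma 3.58.1 in R 4.3.3 (lmFit, eBayes with an intensity trend, two-sided, Benjamini-Hochberg over 14705 probe sets, threshold 0.05), and the fit was tested on simulated data. The members and gene lists were chosen with earlier results of these data known. Named genes were all probe sets of the members, the 4 genes of each list with the smallest p and up to 3 more by role, a set of antioxidant and peroxisome genes whatever their values (not all are reported here), and the 5 most like each member. PEX19, PEX26, PEX5L and the genes that complete the peroxisome list were named after their values were seen. As alternatives, the scaling (quantile, median or none), the floor (another, none or a pseudocount of 16), the filter, the eBayes settings and the array weights were varied, a replicate block was added, and dogs were left out in turn. A cardiac muscle covariate was added after seeing the data.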

Additional observations from a re-analysis of the deposited data

Results flagged for a closer look

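The mean log2 signal of the 13 measured peroxide and superoxide source genes was 7.70 in control 2, apart from the other 3 controls at 8.74 to 8.91. It was the 1 value that stood apart from its group among 24 groups of 4 dogs examined, and chance alone marks about 1 group in 20.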

How the results depend on the processing

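The number of probe sets called at an adjusted p under 0.05 was 0 in each direction. It became 4 higher with the replicate block (SAA1, S100P, UPP1 and the unnamed 1588714_at) and ranged from 0 to 1 with a dog left out (1588714_at, without control 1). With the replicate block the member differences were the same (SELENBP1 -1.79 and -1.43, PRXL2A -1.31), since every number stands once in each group. Dogs with the same replicate number are different animals whose deviations from the group means correlated at -0.12, 0.41, 0.022 and -0.013, so the numbers were not taken as pairs. At an unadjusted p under 0.05, 591 were higher and 560 lower. Array weights gave 896 and 1071, the cardiac muscle covariate gave 844 lower, and leaving out a dog gave 359 (without affected 1) to 975 (without affected 3) higher and 311 to 816 lower. The peroxisome median of -0.35 was -0.24 with no filter, where 26 genes are counted in place of 20, and -0.40 to -0.24 with a dog left out. The NRF2 median ranged from 0.0801 to 0.25 and that of the regulators from -0.27 to 0.12 with a dog left out. Median centring put the median of peroxide removal at -0.018 and that of selenium handling at -0.0400, and the mean of all probe sets of a gene put that of the regulators at -0.087. The cause of these shifts was not tested. Of the dim CAT probe sets, 1595236_at had 3 and 1592623_at had 6 of 8 arrays raised to the floor, which can shrink their differences.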

Other observations

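PPARA, a nuclear receptor that controls fatty acid oxidation and peroxisome genes, had 4 tested probe sets that disagreed. One of them, 1586660_s_at, was singled out after its values were seen. Its signal was 265.1, 742.3, 410 and 387.5 in controls 1 to 4 and 157.6, 239.8, 136.2 and 120.9 in affected dogs 1 to 4, so every affected dog lay below every control, at a log2 difference of -1.41 ± 0.36. The other 3, the brightest among them, differed by -0.51 ± 0.33, -0.40 ± 0.48 and -0.16 ± 0.47.

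GPX3, the plasma glutathione peroxidase, varied more between dogs of 1 group than between the groups. Its brightest probe set had a signal of 1020.6, 10062.7, 710.1 and 2081.0 in controls 1 to 4 and 1832.6, 5962.1, 364.3 and 1660.0 in affected dogs 1 to 4. The highest dogs, control 2 and affected 2, also had the highest cardiac muscle marker sums of their groups (313646.3 and 257527.7), and the lowest, affected 3, had the lowest sum (33603.2).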
